A study of Mus musculus with 10 samples.

Results

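Of the 11271 peaks in the anti-Flag ChIP-Seq list from PRDM16-expressing fibroblasts, 1867 were intronic by the rule used here. Each was under 1000 bp long, had its centre more than 2000 bp from every transcription start site (TSS) of the curated RefSeq transcripts of GRCm38, and lay inside a transcript but in none of its exons. No measured value other than the position and length of a peak entered this choice. The peaks came from wild type primary vascular fibroblasts given a lentivirus that carries Flag-tagged PRDM16, exposed to virus for 48 hours and kept in puromycin (2 μg/mL) for 1 week, and cells with the empty vector were treated alike. There was 1 anti-Flag library per condition, so no peak had a replicate, and every test between peaks compared peaks of this library with each other. PRDM16 was introduced by lentivirus, so the peaks describe the introduced, tagged protein in fibroblasts. RNA-Seq of thoracic aortas compared 3 control mice (*Prdm16*f/f) with 3 Prdm16SMKO mice (*Prdm16*f/f, SMMHC-CreERT2), in which a tamoxifen-inducible Cre under the smooth muscle myosin heavy chain promoter deletes *Prdm16* in smooth muscle, and all 6 carried the floxed alleles. The fibroblasts had no RNA-Seq, so their cell type was not checked against markers and binding and expression come from different cells.

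PRDM16 is a zinc finger transcription regulator, known from brown fat determination, that acts as a coactivator or a corepressor with partners such as CTBP and LSD1. It has a close relative, EVI1 (encoded by *Mecom*), whose N-terminal zinc fingers bind sites built around GACAAGA and the GATA core. Introns hold many enhancers, which work at a distance from the promoter, are often bound by several factors at once, and do not have to act on the gene that contains them.

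The strongest intronic peaks stood over arrays of a 5-base unit, TTGTC, repeated back to back, which reads GACAA on the other strand. The windows below hold 121 bases of the GRCm38 forward strand, centred on the summit, for 3 of the strongest such peaks, and capitals mark the copies of the unit. They lie in intron 2 of *Ptgs2os* (chr1:150088784-150088904), intron 10 of *Scp2* (chr4:108075228-108075348) and intron 2 of *Opn5* (chr17:42601287-42601407).
Ptgs2os: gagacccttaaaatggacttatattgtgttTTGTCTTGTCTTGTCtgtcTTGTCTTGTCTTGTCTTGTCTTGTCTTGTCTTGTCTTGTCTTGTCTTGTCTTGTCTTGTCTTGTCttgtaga
Scp2: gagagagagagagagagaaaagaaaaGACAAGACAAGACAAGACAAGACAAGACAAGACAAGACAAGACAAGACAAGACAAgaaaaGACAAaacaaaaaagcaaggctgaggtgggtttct
Opn5: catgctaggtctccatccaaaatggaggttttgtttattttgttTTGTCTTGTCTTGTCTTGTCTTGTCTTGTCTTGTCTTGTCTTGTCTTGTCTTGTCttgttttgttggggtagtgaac

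A pair of the strongest peaks without a short tandem repeat is shown for contrast, with capitals for the only motif of the searched list found in them, the E-box CAGCTG. They lie in intron 1 of *Uck2* (chr1:167270413-167270533) and of *Pfdn4* (chr2:170504688-170504808). The *Pfdn4* window equalled itself at 73.2% of bases when shifted by 50 bp, against 37.7% at the best shift of the *Uck2* window, so it holds a repeat of a longer unit than the 1 to 6 bases searched.
Uck2: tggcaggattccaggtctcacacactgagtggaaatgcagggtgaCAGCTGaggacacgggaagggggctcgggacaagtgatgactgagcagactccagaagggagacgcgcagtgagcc
Pfdn4: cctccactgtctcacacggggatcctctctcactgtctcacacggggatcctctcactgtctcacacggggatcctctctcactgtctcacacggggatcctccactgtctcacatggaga

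Intronic sites with the zinc finger motifs outside arrays are shown next, from 3 of the stronger peaks with the motif inside the printed window and no tandem repeat. Capitals mark AGATAA in intron 9 of *Abcb8* (chr5:24405268-24405388), its other strand in intron 9 of *Pappa* (chr4:65242609-65242729), where the other strand of GACAAGA overlaps it, and the other strand of GACAAGA in intron 1 of *Rarres1* (chr3:67505752-67505872).
Abcb8: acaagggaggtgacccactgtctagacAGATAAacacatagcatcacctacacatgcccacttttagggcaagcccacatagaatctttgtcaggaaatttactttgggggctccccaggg
Pappa: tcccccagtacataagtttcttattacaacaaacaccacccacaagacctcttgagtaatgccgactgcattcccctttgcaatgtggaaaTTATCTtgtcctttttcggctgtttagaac
Rarres1: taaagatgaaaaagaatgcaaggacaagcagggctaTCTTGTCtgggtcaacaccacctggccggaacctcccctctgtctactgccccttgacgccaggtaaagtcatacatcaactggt

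Intronic peaks were modest in size. Their median length was 334 bp (range 224 to 997) and their median fold enrichment, the signal at the summit over the local background as called by MACS2, was 4.92 (range 1.22 to 47.1). The median was 4.92 in the 2076 intergenic and 5.27 in the 6193 promoter peaks under 1000 bp. Among the intronic peaks 100 (5.36%) had a q above 0.01, the threshold named in the study's methods, with the highest at 0.0483. In the vector library 1 intronic peak had an overlapping peak.

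The fold enrichments took only 220 distinct values, and 1258 of the 1867 (67.4%) were whole multiples of 0.352 within 0.01 of a step. Which library gave the background is not given in the sources used here. If MACS2 added 1 to the number of fragments at the summit and 1 to the background before it divided, its usual setting, a step of this size corresponds to a background of 1.84 fragments. On that scale the median peak held 13 fragments, with an exact 95% Poisson interval of 6.92 to 22.2, and the peaks on these steps held from 9 to 133 fragments, with quartiles of 12 and 16. The commonest value, 4.57, was shared by 173 peaks. On the same reading, typical peaks whose values differ by 0.352 were 1 fragment apart, and the order of peaks near the median is within counting error.

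The 10 strongest peaks had fold enrichments from 15.6 to 47.1, against an upper quartile of 5.98 over all intronic peaks. The peak in *Inpp5f*, which encodes a phosphoinositide phosphatase, reached a fold enrichment of 47.1. *Ptgs2os*, a noncoding transcript beside the prostaglandin synthase gene *Ptgs2*, followed at 29.5, *Snx20* at 29.2, *Scp2*, a sterol carrier protein, at 22.6, and *Opn5*, an opsin, at 21.4. *Ltbp2*, a latent TGF-beta binding protein, had a peak of 20.04 over an AC repeat of 48 bp. *Uck2* (a uridine-cytidine kinase) had 18.3, *Pfdn4* had 16.1 and *Ankfn1* 15.6. Of the 10 strongest peaks, 6 held TTGTC back to back, and of the strongest 20 peaks 8 did, against 26 (1.39%) of all intronic peaks.

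Over these 26 peaks the fold enrichment ranged from 3.72 to 47.1 with a median of 8.39, against 4.92 in the other intronic peaks. In all, 23 of the 26 lay above 4.92. They fell on 14 chromosomes, 7 of them in the first intron, and held 2 to 20 copies of the unit over the whole length of the peak (median 11). The choice asked only for the unit back to back, and the windows in *Nek6*, *Gm973* and *Carmn* held no tandem repeat of 24 bp or more. No vector peak overlapped any of the 26. The number of copies and the fold enrichment had a Spearman rank correlation of 0.53 across the 26 peaks, which share 1 library. Their windows had a median GC of 42.0%, and 23 of the 26 summits lay in soft-masked, repetitive sequence, where the placing of reads can differ from unique sequence. The part of read placement in these values was not tested. The 128 peaks with another repeat of at least 24 bp and the 1713 with neither both had a median of 4.92, while the commonest other units had medians of 5.27 (AC and AG) and 5.48 (ACAG).

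**Figure D1:**
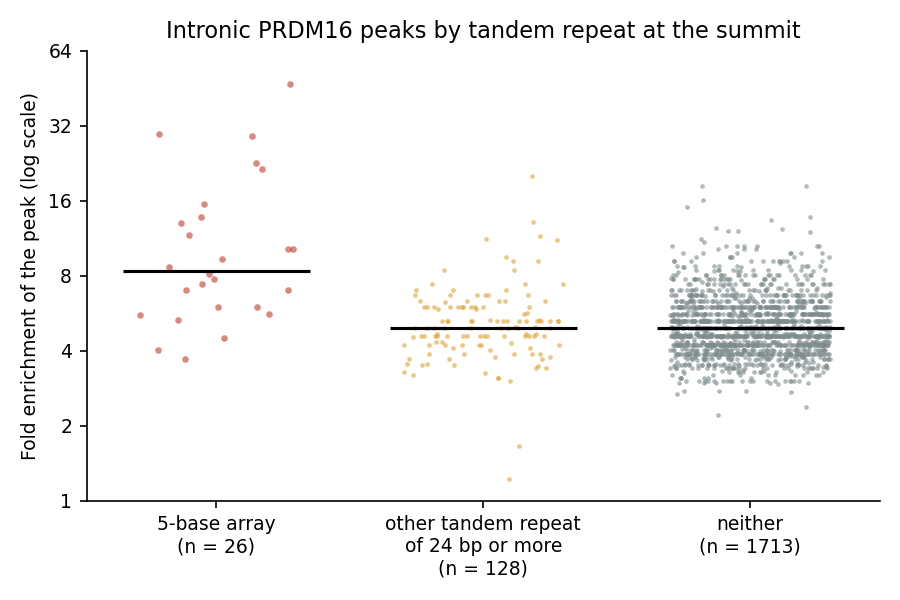
Fold enrichment (log scale) of every intronic PRDM16 peak, grouped by the tandem repeat within 100 bp of the summit. The 26 peaks with TTGTC back to back, whatever the length of the run, have a median (line) of 8.39 and reach 47.1. The 128 with another repeat of at least 24 bp and the 1713 with neither share a median of 4.92.

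The arrays were also counted directly. GRCm38 holds 221 exact TTGTC arrays of at least 20 bp, with arrays within 100 bp of each other taken as 1, and 56 of them (25.3%) carried a PRDM16 peak and 0 a vector peak. In introns by the same rule there were 74, of which 23 (31.1%, exact 95% interval 20.8 to 42.9) carried a peak. Occupancy rose with length. Of the intronic arrays whose longest run was 20 to 29 bp, 1 of 25 carried a peak, then 1 of 10 at 30 to 39 bp, 3 of 13 at 40 to 49 bp, 7 of 10 at 50 to 59 bp and 11 of 16 at 60 bp or more. Those with a run of 50 bp or more were occupied in 18 of 26 cases (69.2%, interval 48.2 to 85.7) and the shorter ones in 5 of 48 (10.4%, interval 3.47 to 22.7, exact Fisher *P* = 3.40e-07, 2-sided). Arrays of all other 5-base units in introns carried a peak in 32 of 30063 cases (0.106%), and those with runs of 50 bp or more in 10 of 6430 (0.156%), fewer than TTGTC arrays of that length (exact Fisher *P* = 3.50e-40, 2-sided). The commonest of these units, AAAAC, carried a peak at 7 of 12444 intronic arrays. The TTGTC test was chosen after the strongest peaks had been seen, so it describes the peaks that led to it.

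**Figure D2:**
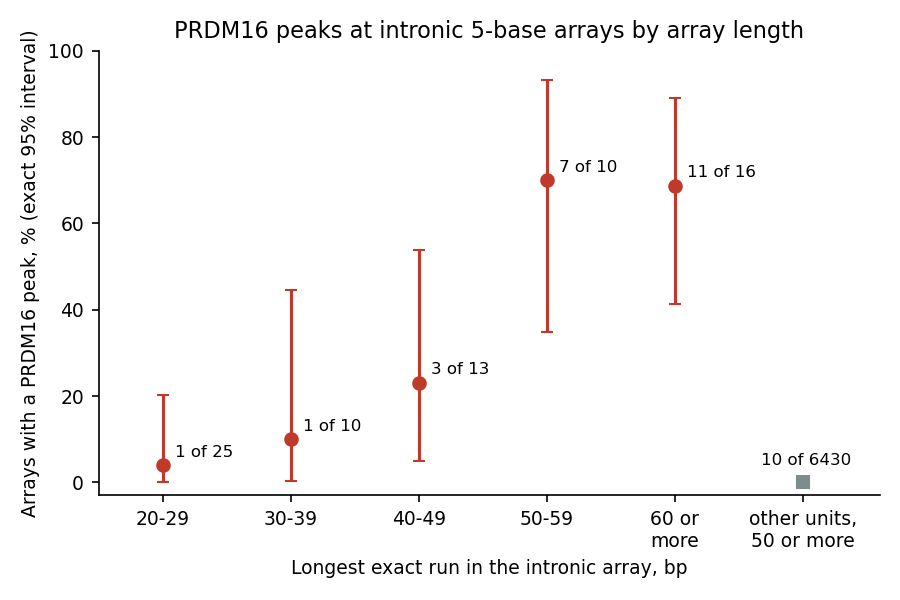
Share of intronic TTGTC arrays that carry a PRDM16 peak, by the longest exact run of the array in bp, with exact 95% intervals, beside arrays of all other 5-base units with runs of 50 bp or more (square). The share goes from 1 of 25 at 20 to 29 bp to 11 of 16 at 60 bp or more, and is 10 of 6430 for the other units.

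Intronic peaks lay nearer to the starts of genes than intronic sequence does. Introns under this rule make up 34.7% of the genome, sampled every 1000 bp, but held 17.9% (exact 95% interval 17.2 to 18.7) of the 10429 peaks under 1000 bp on assembled chromosomes. The median distance to the nearest TSS was 18432 bp, against 36266 bp for the intronic positions of the genome. Between 2000 and 5000 bp from a TSS lay 336 peaks (18.0%, interval 16.3 to 19.8), against 7.54% of positions, and beyond 100 kb lay 159 (8.52%, interval 7.29 to 9.88), against 23.4%. The first intron of the longest host transcript held 686 peaks (36.7%, interval 34.6 to 38.98), against 24.4% of positions, and the third or a later intron held 809 (43.3%), against 58.98%. Counting a first intron of any host transcript gave 41.3% against 27.6%. Introns of at least 50000 bp held 25.4% of the peaks and 36.5% of the positions. Peaks within 500 bp of an exon were 11.6%, against 13.5% of positions.

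**Figure D3:**
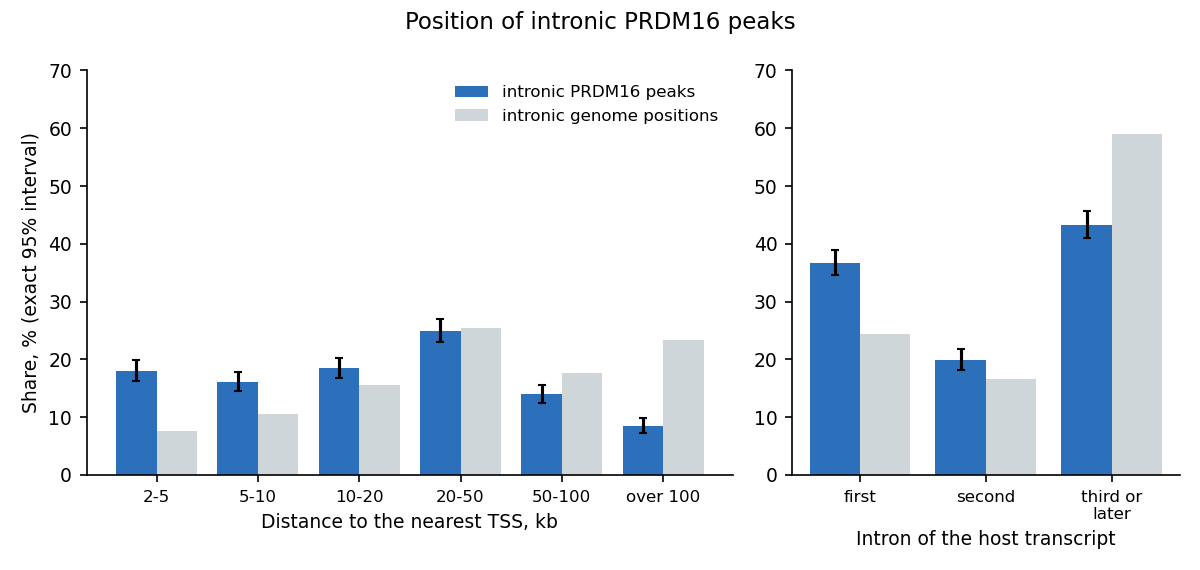
Share of the 1867 intronic peaks (blue, with exact 95% intervals) and of intronic genome positions taken every 1000 bp (grey) by distance to the nearest TSS and by intron number. The peaks exceed the positions at 2 to 5 kb (18.0% against 7.54%) and in the first intron (36.7% against 24.4%), and fall below them beyond 100 kb (8.52% against 23.4%).

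The intronic peaks lay closest to the limit of the rule in *Tnfrsf1a*, a tumor necrosis factor receptor, at 2001 bp from a TSS with a fold enrichment of 6.68, and just outside it in *Lsp1* at 1996 bp with 5.89. By length the nearest were a peak in *Fgf9*, a fibroblast growth factor, of 997 bp with a fold enrichment of 5.27, and one of 1005 bp in *Fank1* with 7.73, 1 of the 81 intronic peaks of 1000 bp or more that the rule left out.

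Some intronic peaks lay near starts that the curated set does not hold. Within 2000 bp of a TSS of a predicted RefSeq or a GENCODE transcript lay 516 of them (27.6%, interval 25.6 to 29.7), against 12.5% of intronic positions of the genome. CpG-rich windows, meaning the 100 bp to either side of the summit with a GC of at least 50% and a ratio of observed to expected CpG of at least 0.6, made up 103 (19.96%) of these 516 and 38 (2.81%) of the rest. The same share fell with distance from a curated TSS, from 15.2% (interval 11.5 to 19.5) at 2000 to 5000 bp to 4.06% (interval 2.38 to 6.42) beyond 50000 bp, while the median fold enrichment was 4.92 in each of the 4 bands of distance.

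Most promoters of housekeeping genes are CpG-rich, and enhancers mostly are not. CpG-rich windows were found in 7.55% (interval 6.39 to 8.85) of intronic, 13.7% of intergenic and 76.6% of promoter peaks. The difference from intergenic peaks was 6.18 percentage points lower (exact Fisher's test, adjusted *P* = 8.01e-10), and that from promoter peaks was too large for its *P* to be told from 0 by the program. A GC of at least 60% was less frequent in intronic than in intergenic peaks (17.3% against 21.0%, exact Fisher's test, adjusted *P* = 0.0050), as was a summit in soft-masked sequence (15.1% against 19.2%, exact Fisher's test, adjusted *P* = 8.34e-04). Another PRDM16 peak lay within 10 kb of 43.3% of intronic and 37.2% of intergenic peaks. The classes were themselves drawn by position, and 59.4% of peaks under 1000 bp were promoter peaks. A test of this difference cannot tell clustering of peaks from nearness to promoters, so no *P* is given for it. Tandem repeats were found in 8.09% of intronic and 9.78% of intergenic peaks, which did not pass the test (exact Fisher's test, adjusted *P* = 0.077), and in 1.91% of promoter peaks.

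No motif of the list separated intronic from intergenic peaks by its test. The letters AGATAA, a core read by GATA factors, occurred on either strand within 100 bp of the summit in 8.03% of intronic and 7.66% of intergenic peaks. The AP-1 site TGANTCA occurred in 6.80% and 6.79% of them. For nuclear factor I the letters searched were TTGGCA, found in 12.1% and 10.3%. For the TEAD factors of the Hippo pathway they were GGAATG, found in 11.9% and 11.8%. Over all 11258 windows of the peak list the shares were 4.01%, 3.63%, 7.54% and 8.34%. None of the comparisons with intergenic peaks, which also covered both E-boxes (the muscle form CAGCTG and the clock factors' form CACGTG), the CTCF core and NRF1 sites with the letters TGCGCA, passed the exact Fisher's test, with the lowest adjusted *P* at 0.147. Promoter peaks differed. AGATAA was found in 1.95% of them (adjusted *P* = 3.75e-30), TGANTCA in 1.81%, TTGGCA in 5.26% and GGAATG in 6.51%, all lower than in introns by the same exact test. GGGCGG (SP and KLF factors) was found in 11.5% of intronic and 47.5% of promoter peaks, and CCGGAA (ETS factors) in 4.18% and 10.2%, both higher in promoters. Promoter windows had a median GC of 69.7% and intronic windows 53.7%, and the part of base composition in these differences was not tested.

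Windows of the same length 5000 bp further along were compared with each intronic summit. The shifted windows were not required to be intronic or to lie away from a TSS, an exon or another peak. GGGCGG occurred in 11.5% of the peaks and 4.87% of the shifted windows (exact McNemar test, adjusted *P* = 2.31e-12), the E-box CAGCTG in 16.6% and 10.98% (exact McNemar test, adjusted *P* = 1.53e-06), and TGANTCA in 6.80% and 4.87% (exact McNemar test, adjusted *P* = 0.028). AGATAA did not differ by this test (8.03% and 9.53%, exact McNemar test, adjusted *P* = 0.164). GACAAGA was found in 107 peaks (5.73%) and 57 shifted windows (3.05%, exact McNemar test, adjusted *P* = 1.97e-04), and every TTGTC pair back to back holds it. Without windows that hold such pairs it was in 4.34% of peaks and 2.84% of shifted windows (exact McNemar test, adjusted *P* = 0.033). GACAAGA was chosen after the peaks were seen, so its tests describe the peaks that led to it. The shifted windows had a median GC of 48.3% against 53.7% at the peaks. Within bands of GC the direction for CAGCTG differed. It was found in 2.94% of peaks and 4.94% of shifted windows at a GC of 30 to 40%, in 6.79% and 9.62% at 40 to 50%, in 19.1% and 14.9% at 50 to 60%, and in 24.6% and 13.4% at 60 to 70%. TGANTCA was the more frequent at peaks in each of these bands, with 11.8% and 4.94%, 8.37% and 5.12%, 6.74% and 4.93%, and 5.38% and 1.49%. The band differences were not tested, and GGGCGG and GACAAGA were not split by GC.

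**Figure D4:**
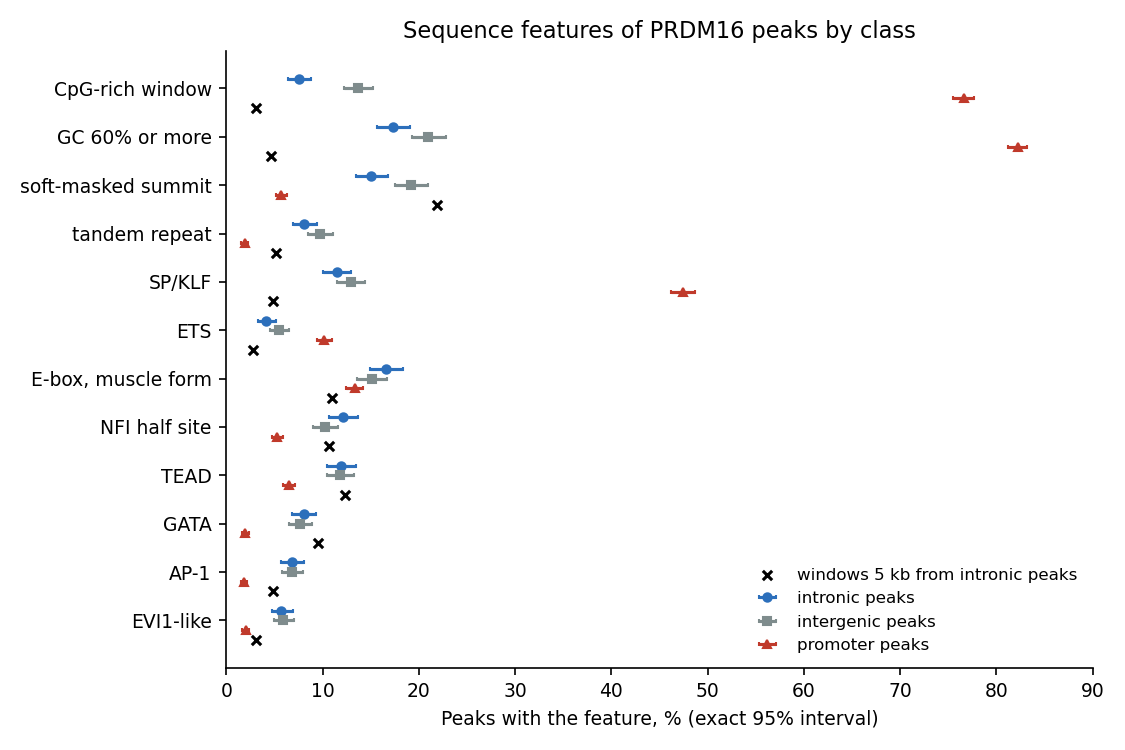
Share of intronic (circles), intergenic (squares) and promoter (triangles) peaks under 1000 bp with each sequence feature or motif, with exact 95% intervals, and of windows 5 kb from the intronic peaks (crosses). Intronic and intergenic peaks lie close together for the motifs, while promoter peaks stand apart for CpG-rich windows (76.6%) and the SP and KLF letters (47.5%).

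The 1867 peaks lay in 1297 genes. Of these, 942 held 1 peak, 212 held 2 and 143 held 3 or more, up to 11. Host genes were long, with a median of 79167 bp against 13451 bp for all 26180 curated genes. They made up 4.95% of all curated genes, 8.37% of those of at least 10 kb and 16.6% of those of at least 50 kb. A promoter peak was also present in 755 of them (58.2%), against 26.04% of all curated genes. In the aorta 77.4% of host genes and 48.3% of curated genes had a mean of at least 1 TPM, a transcript's share of the library corrected for its length, and among genes of at least 10 kb the shares were 77.8% for hosts and 60.1% for the others.

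*Sh3pxd2a*, the podosome scaffold TKS5, held 10 intronic peaks, with fold enrichments from 2.75 to 6.33, in introns 7 to 10 of 14. *Trio*, a guanine nucleotide exchange factor, and *Zmiz1*, a coregulator of SMAD and RUNX factors, held 8 each, with the strongest at 8.09 and 6.82. Another 8 genes held 7 each. They include *Smad7*, the inhibitory SMAD of TGF-beta signaling, *Pmepa1*, another inhibitor of that pathway, *Bcl9l*, a WNT coactivator, and *Hspg2*, the basement membrane proteoglycan perlecan. All of these genes also had a promoter peak.

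Lists of genes by function differed in how many of their members were hosts. In the list of fibroblast growth factor and receptor kinase genes 15 of 26 (57.7%) held an intronic peak, including *Pdgfrb*, the mural cell receptor for PDGF-B (3 peaks, strongest fold enrichment 8.79), the growth arrest receptor *Axl* (2 peaks, 7.73) and *Ddr1*, a collagen receptor (6.68). Extracellular matrix genes were hosts in 16 of 45 cases (35.6%) with 38 peaks, led by *Col4a2* (4 peaks, 10.5) of the basement membrane, *Vcan* (versican, 10.5), *Col4a1* (8.79) and *Fbln1* (fibulin 1, 7.03). Mesenchymal transcription factors were hosts in 17 of 52 cases (32.7%) with 37 peaks, among them *Tead1* (10.5), *Prdm16* (8.44) and *Glis1* (7.73). The median gene lengths of these lists were 78329, 51438 and 90692 bp, so their shares are to be read beside the 16.6% of all genes of at least 50 kb.

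TGF-beta and BMP signaling genes were hosts in 10 of 34 cases (29.4%), and these 10 genes held 29 peaks. Beside *Ltbp2* (4 peaks) and *Smad7* (7 peaks) they include *Smad3*, the receptor-activated SMAD, with 4 peaks up to 9.49, and *Ski*, a corepressor of SMADs, with 4 peaks up to 6.33. Core clock genes were hosts in 7 of 24 cases (29.2%), with *Npas2*, the partner of BMAL1, and *Csnk1e*, a kinase of PER proteins, holding 3 peaks each, and *Nr1d1* (REV-ERB alpha) 1 of 5.89. WNT and Notch signaling genes were hosts in 9 of 36 cases (25.0%), smooth muscle contractile genes in 7 of 30 (23.3%, with *Cald1*, caldesmon, at 4 peaks), PRDM16 partners and brown fat genes in 3 of 23 (13.0%), and adrenergic and vasoactive receptors in 2 of 28 (7.14%). Gene length differed between these lists, with medians from 15492.5 bp (receptors) to 100580 bp (contractile genes). Their shares are to be read beside 8.37% of all genes of at least 10 kb and 16.6% of those of at least 50 kb.

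*Prdm16* itself held 2 intronic peaks. The stronger, in intron 2 of 16 (chr4:154521584-154521993), had a fold enrichment of 8.44 over an AC repeat of 44 bp, and the other, in intron 3 (chr4:154425002-154425328), had 4.92. In the aorta *Prdm16* was at 56.1, 47.6 and 40.3 TPM in controls and 23.3, 33.3 and 23.4 TPM in Prdm16SMKO mice, without overlap, a log2 fold change of −0.85 ± 0.18 that did not pass over all genes (limma, adjusted *P* = 0.072). *Adra1b*, the alpha 1B adrenergic receptor, held 1 weak peak in intron 1 of 4 (chr11:43889256-43889481), 11869 bp from the nearest TSS, with a fold enrichment of 3.52 and a −log10 q of 1.86, so its q was above 0.01. Its expression, 3.27, 1.84 and 1.58 TPM in control and 2.38, 2.7 and 2.45 TPM in Prdm16SMKO aortas, overlapped between the groups (log2 fold change 0.23 ± 0.30, limma adjusted *P* = 0.797). The windows at the stronger *Prdm16* peak (chr4:154521818-154521938) and the *Adra1b* peak (chr11:43889343-43889463) are given because *Prdm16* is the deleted gene and *Adra1b* belongs to the alpha 1 adrenergic receptors, with the E-box CAGCTG of *Adra1b* in capitals.
Prdm16: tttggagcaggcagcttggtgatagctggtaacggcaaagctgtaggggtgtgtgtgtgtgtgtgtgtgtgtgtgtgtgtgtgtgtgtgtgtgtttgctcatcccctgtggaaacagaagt
Adra1b: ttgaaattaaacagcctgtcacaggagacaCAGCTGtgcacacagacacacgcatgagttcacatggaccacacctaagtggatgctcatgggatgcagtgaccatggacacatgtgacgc

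In the aortas 1040 host genes were tested with limma on log2(TPM + 0.1). Of these, 26 (2.50%) had an adjusted *P* under 0.05, with 5 higher and 21 lower in Prdm16SMKO aortas. Over all 15668 genes tested the share called was 1.07%, with 0.389% higher and 0.683% lower, so that 2.02% of host genes against 0.683% of all genes were lower. The median log2 fold change was −0.12 in host genes and −0.12 over all genes. Host genes with a promoter peak were called in 14 of 701 cases (2.00%), host genes without one in 12 of 339 (3.54%), and genes with a promoter peak and no intronic peak in 45 of 5045 (0.892%). Host genes with 3 or more intronic peaks were called in 3 of 134 cases. Among genes with a mean of at least 10 TPM, 23 of 665 host genes (3.46%) and 75 of 6606 others (1.14%) were called, and below 10 TPM 3 of 375 (0.800%) and 67 of 8022 (0.835%). After rescaling of the TPM by median ratios 74 host genes (7.12%) were called, 28 higher and 46 lower, against 413 of all genes (2.64%), 200 higher and 213 lower. Without the mean-variance trend 2 of 1040 host genes (0.192%) and 48 of all genes (0.306%) were called. Leaving out 1 aorta left 13 host genes (1.25%, against 0.667% of all genes) without Prdm16SMKO 1 and 15 (1.44%, against 0.896%) without Prdm16SMKO 3. It left 15 (1.44%, against 0.583%) without control 1 and 10 (0.960%, against 0.591%) without control 3.

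Of the called hosts, 3 were on the extracellular matrix list. *Eln*, which encodes elastin, had 4018, 3156 and 2850 TPM in control and 771, 965 and 774 TPM in Prdm16SMKO aortas. The groups did not overlap, with means of 3342 ± 606 and 837 ± 111 TPM (SD, n = 3 each), and the log2 fold change was −1.99 ± 0.15 (SE, limma, adjusted *P* = 0.0012). Its 1 intronic peak, in intron 4 of 36 (chr5:134735261-134735484), was weak, with a fold enrichment of 3.03 and a −log10 q of 1.54. *Col18a1*, a basement membrane collagen, had 821, 705 and 721 TPM in controls and 360, 436 and 331 TPM in Prdm16SMKO aortas, with means of 749 ± 62.9 and 376 ± 54.1 TPM (SD, n = 3 each, limma adjusted *P* = 0.0091). Its peak of 4.22 lay in intron 6 of 41. *Fbn1*, fibrillin 1, with 3 peaks up to 6.33, fell by 0.72 on the log2 scale (limma, adjusted *P* = 0.048). The list held 16 tested hosts, with a median log2 fold change of −0.35, and 28 tested genes without an intronic peak, of which 4 were called. Among all 15668 genes tested 1.07% were called, and the median log2 fold change was −0.12.

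*Npas2* had 12.85, 8.70 and 9.37 TPM in control and 3.42, 2.04 and 2.41 TPM in Prdm16SMKO aortas, without overlap (log2 fold change −1.94 ± 0.24, limma adjusted *P* = 0.0079). Its 3 intronic peaks lie in introns 1, 2 and 3 of 20, with fold enrichments of 5.27, 5.98 and 4.22. These peaks are between 62753 and 82897 bp from the nearest TSS. *Npas2* also had a promoter peak in the same library. The part of the promoter peak or of the intronic peaks in its lower expression was not tested. The other 6 clock hosts did not pass the test, with log2 fold changes between −0.65 and 0.63 and adjusted *P* values of at least 0.254 (limma). Of the 16 tested clock genes without an intronic peak 3 were called, all higher in Prdm16SMKO aortas. Among all 15668 genes tested 1.07% were called, and 0.389% were called higher. The windows at the *Eln* peak (chr5:134735203-134735323) and at the strongest *Npas2* peak (chr1:39284870-39284990) show what lies under the summits in both genes, with an E-box CAGCTG in capitals in *Npas2* and a dinucleotide repeat in *Eln*.
Eln: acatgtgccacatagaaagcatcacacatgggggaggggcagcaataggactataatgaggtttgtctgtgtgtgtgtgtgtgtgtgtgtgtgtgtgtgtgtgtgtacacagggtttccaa
Npas2: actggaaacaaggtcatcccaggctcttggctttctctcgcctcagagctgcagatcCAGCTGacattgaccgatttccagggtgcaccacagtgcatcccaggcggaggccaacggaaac

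*Sh3pxd2a*, with 10 intronic peaks, had 162, 135 and 123 TPM in control and 76.5, 74.7 and 71.1 TPM in Prdm16SMKO aortas (log2 fold change −0.91 ± 0.13, limma adjusted *P* = 0.012). *Osbpl3*, an oxysterol-binding protein, fell by 1.21 on the log2 scale, the immune checkpoint gene *Cd276* by 1.19, the integrin *Itgb3* by 1.06 and the WNT modulator *Dkk3* by 0.97. Of the 5 host genes that were higher, *Plat*, tissue plasminogen activator, had 30.25, 26.1 and 30.2 TPM in control and 62.6, 63.9 and 61.4 TPM in Prdm16SMKO aortas (log2 fold change 1.12 ± 0.12, limma adjusted *P* = 0.0039). *Reep1*, which shapes the endoplasmic reticulum, rose by 1.40, the ubiquitin ligase *Mid1* by 1.36, the synaptic scaffold *Dlgap1* by 0.89 and the hyaluronan receptor *Cd44* by 0.86. The remaining called hosts all fell, by 0.67 (*Ergic1*) to 0.94 (*Wfdc1*) on the log2 scale. They were *Wfdc1*, the LIM protein gene *Csrp1*, the protease gene *Htra3*, *Limch1*, the retinal reductase gene *Dhrs3*, the basement membrane gene *Tinagl1*, *Tm4sf1*, *Sorl1*, *Cables1*, *Arhgef10l*, *Sparc* (osteonectin) and *Ergic1*. The 26 genes kept their direction in every alternative fit, and 9 (*Eln*, *Npas2*, *Reep1*, *Mid1*, *Osbpl3*, *Plat*, *Col18a1*, *Sh3pxd2a* and *Tinagl1*) were called without any 1 of the 6 aortas.

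**Figure D5:**
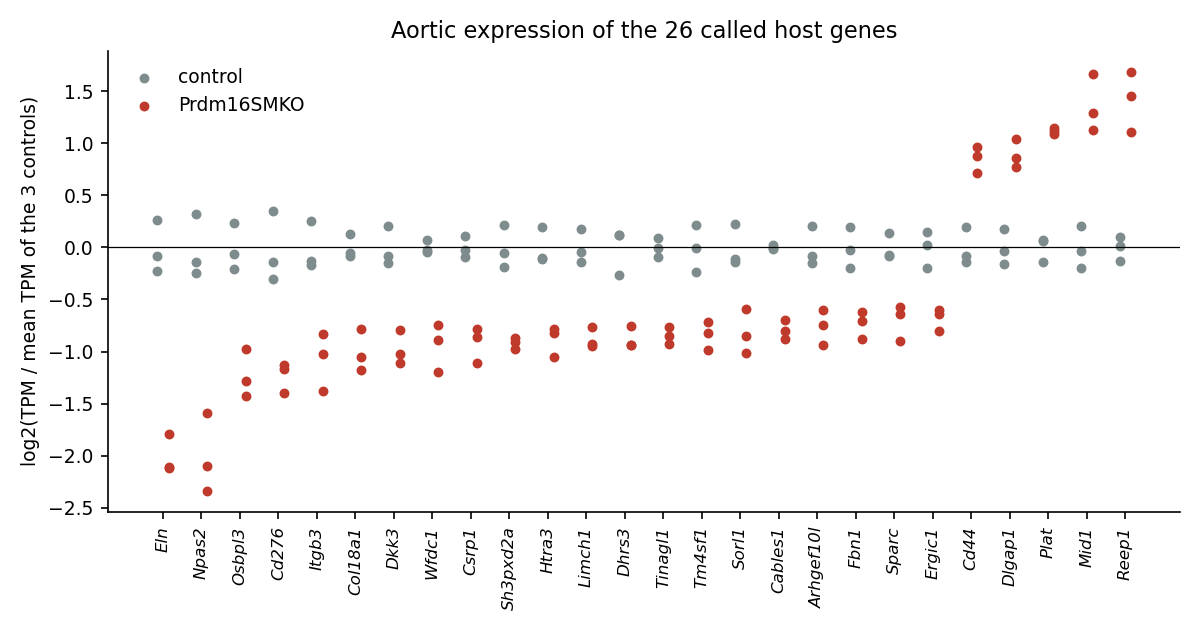
Expression of the 26 called host genes in each aorta as the log2 ratio of TPM to the mean of the 3 controls (grey, controls, red, Prdm16SMKO). In each gene the 3 Prdm16SMKO aortas lie on one side of all 3 controls, below them for 21 genes and above for 5. The genes were chosen by the test on these same values, so the separation follows largely from the choice. Some uncalled hosts, among them *Smad7*, did not overlap either.

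The called hosts did not have the stronger peaks. In 4 of the 26, *Eln*, *Osbpl3*, *Mid1* and *Csrp1*, the only intronic peak had a q above 0.01. Their strongest intronic peak had a median fold enrichment of 4.61 (range 3.03 to 8.09), and it exceeded 4.92, the median of all intronic peaks, in 10 of 26 genes (38.5%). In the other 1014 tested hosts the median was 5.27, and 551 (54.3%) exceeded 4.92. Marker genes of smooth muscle summed to 20649 to 24074 TPM in control and 13730 to 17733 TPM in Prdm16SMKO aortas, and fibroblast markers to 1465 to 1927 and 1211 to 1593 TPM. The 6 smooth muscle markers all had log2 fold changes below 0, while of the 6 fibroblast markers 4 were above 0 and 2 (*Col1a1* and *Col1a2*) below. Over all 15668 genes tested the median log2 fold change was −0.12, and 32.1% of genes were above 0. By limma 0 of the 6 smooth muscle and 0 of the 6 fibroblast markers were called, while 4 and 3 had an unadjusted *P* under 0.05. No marker of either type was under 0.5 TPM in all 6 aortas. Adipocyte markers summed to 405 to 1621 TPM in control and 464 to 1154 TPM in Prdm16SMKO aortas. Endothelial markers summed to 109 to 151 and 74.0 to 163 TPM, and macrophage markers to 63.5 to 87.85 and 51.55 to 86.9 TPM. Skeletal muscle markers summed to 10.6 to 14.4 and 4.77 to 13.8 TPM. No marker of these types was called by limma, and 1 of the 5 endothelial ones had an unadjusted *P* under 0.05. Fewer cells of a type and less RNA per cell cannot be told apart in whole aortas, and the part of cell composition in these changes was not tested.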

How the data were processed

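Per the labels and methods, the authors aligned ChIP-Seq reads by bowtie2 (GRCm38), and MACS2 was run per library. For each peak the deposited list gives a fold enrichment (a ratio), −log10 p, −log10 q and an integer score, of which the score was not used. The authors deposited RNA-Seq values as TPM. The submitters' processing notes name STAR 2.7.8a and RSEM 1.3.3. Peaks were placed with the curated RefSeq annotation of GRCm38. Motifs were sought on both strands within 100 bp of the summit. Shares have exact Clopper-Pearson 95% intervals, which cover counting error only. Classes were compared by Fisher's exact test and shifted windows by an exact McNemar test, 2-sided, with Benjamini-Hochberg adjustment. Expression was tested with limma 3.58.1 (lmFit, eBayes with trend, R 4.3.3) on log2(TPM + 0.1) for genes with a mean of at least 0.5 TPM, adjusted over all 15668 genes. TPM hold no depth. Replicate numbers in the labels did not pair the aortas (correlations −0.025, −0.070 and −0.0090). The limma *P* values weigh the difference between the groups against the spread between aortas within them. Tests between peaks, windows or arrays hold no spread between samples. The classifier and the limma step were tested on simulated data. Members, gene lists and motifs were chosen with earlier results of these data known, and GACAAGA and the TTGTC arrays after the peaks were seen. Named were the 10 strongest peaks with a q of at most 0.01 and no vector overlap, the 5 genes with the most peaks and their ties, called hosts (the 20 largest changes, and *Sorl1*, *Cables1*, *Arhgef10l*, *Fbn1*, *Sparc* and *Ergic1* outside that rule, after their values were seen), list members with the strongest peaks, peaks at the limits of the rule, *Prdm16* and *Adra1b*. IgG libraries were not used here. Some items are not reported here.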

Additional observations from a re-analysis of the deposited data

How the results depend on the processing

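The number of intronic peaks lay between 1531 (a TSS limit of 5000 bp) and 2191 (1000 bp). The share in the first intron was 42.9% with a TSS limit of 1000 bp, 31.8% with 5000 bp and 40.0% with GENCODE transcripts. The median fold enrichment was 5.27 at a q of at most 0.001, and CpG-rich windows made up 6.05% under a GC of at least 55% and a CpG ratio of at least 0.65. At a q of at most 0.001 tandem repeats (−2.64 percentage points, exact Fisher's test, adjusted *P* = 0.014) and overlaps with vector peaks (−0.339 points, exact Fisher's test, adjusted *P* = 0.038) became lower in intronic than in intergenic peaks. Of 42 alternative motif comparisons with intergenic peaks 41 stayed past or short of the threshold as before, and TTGGCA within 50 bp of the summit passed.

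Genes called numbered 48 (0.306%) without the trend, 110 (0.419%) without a TPM filter, 392 (2.50%) after quantile normalization and 413 (2.64%) after median ratio rescaling. Host genes called numbered 2 (0.192%), 15 (1.23%), 65 (6.25%) and 74 (7.12%) in the same order. Leaving out each aorta in turn gave 91 to 141 genes (0.583% to 0.896%) and 10 to 19 host genes (0.960% to 1.83%). With the replicate block 184 genes (1.17%) and 28 host genes (2.69%) were called. Of the 26 named hosts *Cables1*, *Fbn1* and *Sorl1* were lost (adjusted *P* = 0.062, 0.059 and 0.052, limma). No direction reversed among the named genes in any of these fits. With 1 ChIP library, peak values have no replicate error, and at a median near 13 fragments, on the reading given above, weak sites are at the limit of detection.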

Other observations

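Intronic peaks were spread unevenly over the chromosomes. Per length of intronic sequence, chromosome 15 held 2.13 times and chromosome 11 held 1.86 times the density of all chromosomes, chromosome 3 held 0.495 times, and the X chromosome held 0.0750 times with 6 peaks. Intergenic peaks had ratios of 2.16 on chromosome 15, 1.85 on chromosome 11 and 0.0643 on the X chromosome, and promoter peaks 1.43, 1.10 and 0.208. No input library was analysed, and the number of chromosome copies in these cells was not tested.

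Among windows with a GC of 40 to 50%, AGATAA was found in 67 of 442 intronic peaks (15.2%, exact 95% interval 11.9 to 18.8) and in 81 of 821 shifted windows (9.87%, interval 7.91 to 12.1). The shares were 17.6% and 17.1% at 30 to 40%, 6.55% and 6.58% at 50 to 60%, and 2.31% and 1.49% at 60 to 70%, so the gap at 40 to 50% is the widest of 4 bands, all looked at after the data were seen. TTGGCA was found in 8.82% and 10.3%, 11.3% and 10.8%, 12.7% and 11.2%, and 12.3% and 8.96% of peaks and shifted windows in these bands from low to high GC, and GGAATG in 14.7% and 9.89%, 11.3% and 12.1%, 13.2% and 14.5%, and 9.62% and 7.46%.

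The tandem repeats under intronic peaks were mostly AC (67 peaks, median fold enrichment 5.27) and AG (26 peaks, 5.27), with ACAG in 16 (5.48). The 2 peaks at ACAGC repeats had the lowest fold enrichments of all repeat peaks, 1.22 and 1.66.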
